A study of Mus musculus with 4 samples.

Results

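The genes described here are 49 regulators of the cell cycle. They were taken as a list of symbols and looked up in the gene column of 3 deposited lists of m6A peaks. Of the 49, 19 act in G1 and at the entry into S phase, 9 license and fire replication origins, and 21 act in G2 and mitosis. A row in at least 1 list was found for 16 of them, among 6078 genes with a row in any list. The cells were mouse embryonic fibroblasts expressing E1A, an adenoviral oncoprotein that binds pocket proteins, and HRasV12, an activated RAS. The control group carried control shRNA (shLuc) and the other group carried shRNA against Mettl3, the enzyme that writes most m6A in mRNA. Cells of both groups also received doxorubicin, a topoisomerase poison that breaks DNA, at 0.2 µg/ml for 6 h, so no undamaged cells and no cells without the oncogenes enter any value. Each group had 1 m6A-eCLIP library and 1 input RNA library, so no difference has a replicate check.

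The cell cycle is driven by cyclin-dependent kinases that cyclins switch on in order. In G1, cyclin D with Cdk4 or Cdk6 and cyclin E with Cdk2 phosphorylate the pocket proteins and release E2F factors, which switch on genes for replication and for later phases. Before S phase the origin complex, Cdc6 and Cdt1 load the MCM helicase. In mitosis Cdk1, Aurora and Polo kinases, kinesins and kinetochore proteins separate the chromosomes. N6-methyladenosine is a mark on mRNA that is typically dense near stop codons and in long exons, and that reader proteins link to decay and translation.

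m6A-eCLIP sequences the RNA fragments crosslinked to an antibody against m6A. Each peak came with the authors' log2 fold over its input and their −log10 p, and only peaks above a log2 fold of 3 were listed. A gene without a listed peak may therefore still be methylated below that limit, or be too weakly expressed to be seen. The lists over input held 15439 control peaks and 15417 knockdown peaks, and a comparison list held 1851 peaks that the authors found to be higher in control cells than under Mettl3 shRNA. Read depth was not analysed here, and since cells were lysed in bulk, fewer cells in a phase and less RNA per cell cannot be told apart. Mettl3 itself had 0 peaks in each list, and peaks give no transcript level, so the extent of the knockdown was not measured here. Peaks over input were listed for 2 of 10 fibroblast markers in control cells and for 3 of them under Mettl3 shRNA. Of all protein-coding genes, 20.1% and 19.4% had such a peak, so these counts do not bear on cell type. None of the 4 epithelial, 3 endothelial and 3 haematopoietic markers had a peak in any list, which sets of this size cannot set apart from the share of all genes.

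Few of the cell-cycle genes carried an m6A peak over input, and more of them appeared among the peaks higher in the control. A control peak was listed for 5 of the 49 genes, or 10.2% (exact 95% interval 3.4 to 22.2), against 20.1% of the 21900 protein-coding genes in the RefSeq table. A knockdown peak was listed for 4, or 8.16% (2.27 to 19.6), against 19.4% of protein-coding genes. Both intervals included the share of protein-coding genes, so neither count was read as lower than that share. The comparison list held 12, or 24.5% (13.3 to 38.9), against 5.52% of protein-coding genes. The background was not matched for expression, which the peak lists do not give. The 49 genes were chosen with earlier results of these data known, so their shares are not those of an independent list. Among genes with a row in any list, 12 of the 16 members were in the comparison list, against 20.1% of all such genes. Of the 12, 11 had no peak over input in either library, against 49.9% of all genes in the comparison list. The intervals cover counting error only.

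**Figure D1:**
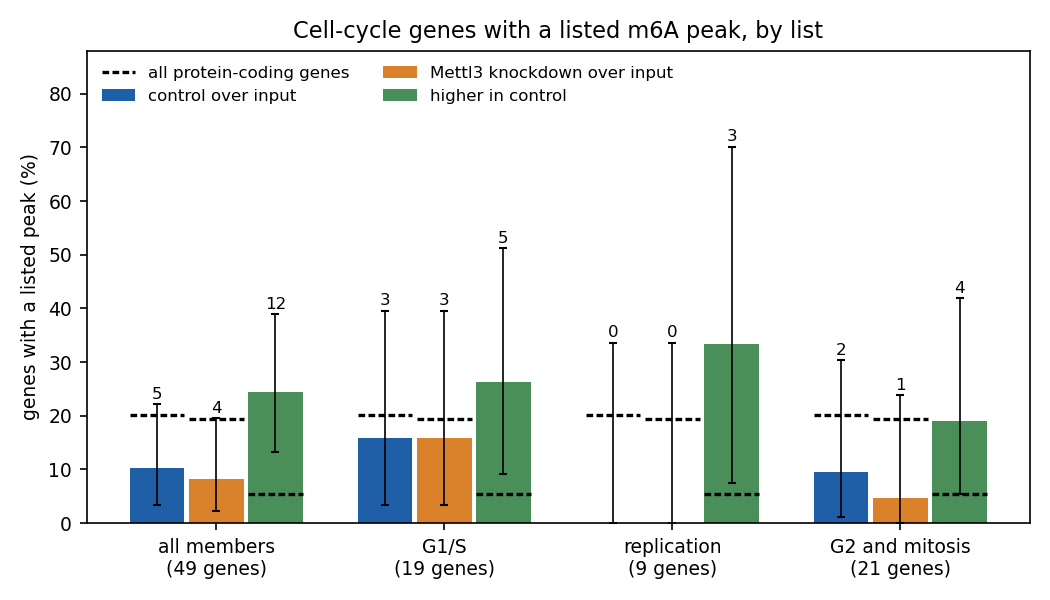
Share of cell-cycle genes with a listed m6A peak (vertical axis, percent) for all 49 genes and by phase (horizontal axis). Bars are the control list over input, the Mettl3-knockdown list over input and the list of peaks higher in the control, whiskers are exact 95% intervals, numbers above them are gene counts, and dashed lines are the shares of all protein-coding genes. The bars for peaks higher in the control stand above their dashed line in every phase, though the G2 and mitosis whisker reaches it. The replication genes had no peak over input, and their whiskers cross the dashed lines.

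By phase, the genes were spread over the lists as follows. Of the 19 G1/S genes, 3 had peaks in both lists over input and another 5 had only peaks higher in the control. Of the 9 replication genes, 0 had a peak over input and 3 had a peak higher in the control. Of the 21 genes of G2 and mitosis, 2 had a control peak, 1 of these also had a knockdown peak, and 4 had a peak higher in the control. Counts of this size leave wide intervals (for the comparison list 9.15 to 51.2% in G1/S, 7.49 to 70.1% in replication and 5.45 to 41.9% in G2 and mitosis), and these overlap, so no order of the phases was read from them. Of all protein-coding genes, 5.52% were in the comparison list, a share that the G2 and mitosis interval includes.

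Of the 5 E2F genes, 4 had a row in some list, where 5540 of the 21900 protein-coding genes did. E2f1 and E2f3, transcriptional activators of S-phase genes, had peaks over input in both libraries and no peak higher in the control. E2f7 and E2f8, the atypical E2Fs that repress such genes, had only peaks higher in the control. E2f2, the other activator of the list, had no peak in any list. Of all genes with a peak over input, 11.2% were in the comparison list. Of all genes in the comparison list, 49.9% had no peak over input. With so few E2F genes, no contrast between activators and repressors was read from this.

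E2f3 had the most peaks over input of the 49 genes, 7 for control cells and 5 for knockdown cells, in 2 separate stretches, and it also had the highest fold of any member in each list. Neighbouring peaks of a gene often share a border, and a run of such adjoining peaks is called a stretch here. The first stretch, on chromosome 13 from 29909775 to 29910158 (mm10, minus strand), ran from coding sequence across the stop codon into the 3' UTR. Its control peaks stood at log2 folds over input of 4.11, 5.03, 4.47, 4.26 and 3.70 from 5' to 3', and its knockdown peaks at 4.46, 5.41, 4.22 and 3.82. In both libraries the fold was highest within the coding sequence before the stop codon. The stretch was 384 bases long in each list, and its length-weighted mean log2 fold over input was 4.21 in the control and 4.45 in the knockdown. The second stretch lay downstream in the 3' UTR, from 29909167 to 29909374 in the control list. Its control peaks stood at 3.78 and 4.03 and its only knockdown peak at 3.29, over 192 bases. The listed folds of this second stretch were thus lower in the knockdown library. In the first stretch the lists cut the peaks at different positions, so single peaks there were not compared. The knockdown 3' UTR peak at 3.82 lay over both control 3' UTR peaks, at 3.70 and 4.26. The control coding peak at 4.47 lay under the knockdown peak at 4.22 and part of that at 5.41.

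E2f1 carried a single stretch in its coding sequence on chromosome 2 (minus strand). The control list split it into peaks at log2 folds over input of 3.79, 4.57 and 3.97 from 154560626 to 154560880, the middle peak being only 7 bases long. The knockdown list gave 1 peak of 298 bases from 154560574 to 154560871 at 3.15. The knockdown value lay below every control peak of the gene, while the stretch was no shorter.

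Cdkn2c encodes p18INK4c, an inhibitor of Cdk4 and Cdk6, and was the only member with peaks in the 5' UTR. On chromosome 4 (minus strand) the control list held 3 adjoining peaks from 109666220 to 109666555, at log2 folds over input of 3.02, 3.80 and 3.21 from 5' to 3'. The knockdown list held 1 peak of 106 bases at 3.17, where the control stretch was 336 bases long. Among all genes, 0.999% of stretches found in both lists shortened as much or more. The outer control peaks, at 3.02 and 3.21, stood just above the lower limit of 3. The other inhibitor among the members, Cdkn1b (p27), had no peak in any list.

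**Figure D2:**
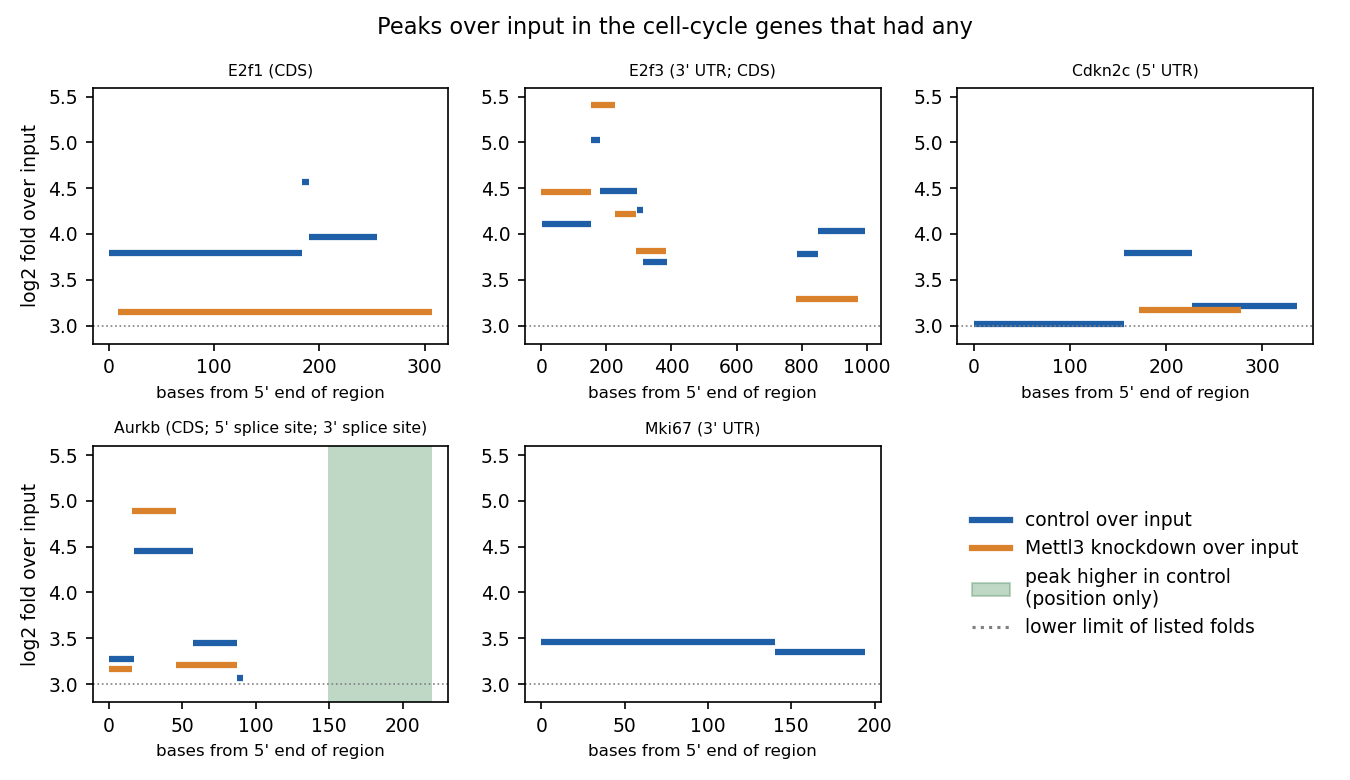
Peaks over input in the 5 cell-cycle genes that had any: each line is a peak, drawn from its first to its last base (horizontal axis, bases from the 5' end of the region) at its log2 fold over input (vertical axis), blue for control and orange for Mettl3 knockdown. The dotted line is the lower limit of 3, and the green band in Aurkb marks the position of a peak higher in the control. E2f1 and the downstream stretch of E2f3 stood lower in the knockdown, and Mki67 had control peaks only.

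Among the pocket proteins, which hold E2F factors in check, Rbl2 (p130) had the largest log2 differences of all 49 genes. Its 3 peaks higher in the control lay within 91122402 to 91122829 of chromosome 8 (plus strand). From 5' to 3' the authors' deposited table gave log2 differences of 0.86 in coding sequence (p = 0.000492), then 1.27 (p = 0.00724) and 1.07 (p = 0.0306) in the 3' UTR. The coding and first 3' UTR peaks adjoined, and 1 base separated the others, so the region ran across the stop codon. These were the only 2 member peaks with a log2 difference above 1, and the third stood above the median of all listed peaks. The RefSeq span of Aktip, a gene on the opposite strand, also covers them, while the authors' list assigns them to the plus strand. Rb1 and Rbl1 had no peak in any list.

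E2f8 had 1 peak higher in the control in coding sequence, on chromosome 7 from 48870886 to 48871010 (minus strand), with a log2 difference of 0.86 in the authors' deposited table (p = 0.000819). E2f7 had 1 in coding sequence on chromosome 10 from 110782427 to 110782592 (plus strand), with 0.60 (p = 0.036) in the authors' deposited table. The difference was thus smaller and less well supported in E2f7 than in its paralogue.

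Of the 5 G1 cyclins only Ccnd2 had a peak. Cyclin D2 is an activating partner of Cdk4 and Cdk6, and its transcript has a long 3' UTR. There 2 adjoining peaks on chromosome 6 from 127129755 to 127130062 (minus strand) had log2 differences of 0.72 (p = 3.56e-07) and 0.52 (p = 0.0167) in the authors' deposited table. Cdc25a, the phosphatase that removes inhibitory phosphates from Cdk2, had 1 peak in its 3' UTR on chromosome 9 from 109892804 to 109892994 (plus strand). The authors' deposited table gave it a log2 difference of 0.68 (p = 0.00112). Ccnd1, Ccnd3, Ccne1, Ccne2, Cdk2, Cdk4 and Cdk6 had no peak in any list.

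All 4 replication peaks lay in 3' UTRs and were peaks higher in the control. The strongest support among all members belonged to Mcm3, a subunit of the MCM helicase. Its single peak on chromosome 1 from 20803184 to 20803323 (minus strand) had a log2 difference of 0.78 with p = 1.48e-13 in the authors' deposited table. Its partner subunit Mcm5 had 2 adjoining peaks on chromosome 8 from 75127451 to 75127587 (plus strand), at 0.61 (p = 0.000134) and 0.71 (p = 8.89e-07) in the authors' deposited table. Cdc6, which helps load the helicase, had 1 peak on chromosome 11 from 98921566 to 98921666 (plus strand), at 0.86 (p = 0.00833) in the authors' deposited table. Between Cdc6 and Mcm3, the larger difference thus had the weaker support. The other 4 MCM subunits of the list (Mcm2, Mcm4, Mcm6 and Mcm7) had no peak in any list, and neither did Orc1, a subunit of the origin complex, or the loading factor Cdt1.

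In mitosis, both Aurora kinases had peaks higher in the control, and they differed in their peaks over input. Aurka, which acts at centrosomes and spindle poles, had 2 adjoining coding-sequence peaks on chromosome 2 from 172356816 to 172356983 (minus strand). The authors' deposited table gave them log2 differences of 0.99 (p = 6.05e-05) and 0.71 (p = 0.0437). Aurka had no peak over input.

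Aurkb, the kinase of the chromosomal passenger complex, was the only member found in all 3 lists. Its control stretch on chromosome 11 from 69048642 to 69048732 (plus strand) ran from an exon through both splice sites of an intron into the next exon. From 5' to 3' its peaks stood at log2 folds over input of 3.27, 4.45, 3.45 and 3.06 in the control, and at 3.17, 4.89 and 3.21 in the knockdown. The highest fold lay at the 5' splice site in both libraries. At the splice sites −log10 p was 29.5 and 32.6 in the control and 29.9 and 26.8 in the knockdown, while the coding-sequence peaks had reached the cap of 400. The peak higher in the control lay 58 bases downstream of this control stretch, in coding sequence from 69048791 to 69048861, with a log2 difference of 0.67 (p = 0.00422) in the authors' deposited table.

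Mki67, which encodes the proliferation marker Ki-67, had control peaks only. They adjoined in the 3' UTR on chromosome 7 from 135689895 to 135690088 (minus strand), at log2 folds over input of 3.46 and 3.35. The gene had no row in the comparison list. Both folds lay below the median of 3.69 of all control peaks, and a knockdown peak with a fold of 3 or less would not be listed.

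Kinetochore genes completed the mitotic group. Cenpf, a large kinetochore-associated protein, had the most peaks higher in the control of any member, 4 in number and spread along the gene. On chromosome 1 (minus strand) 3 lay in coding sequence, from 189658222 to 189658364, from 189657957 to 189658151 and from 189648616 to 189648804. For these the authors' deposited table gave 0.93 (p = 0.0351), 0.77 (p = 0.0434) and 0.75 (p = 0.0286). The peak in the 3' UTR, from 189642392 to 189642495, had 0.93 (p = 0.0139) in the authors' deposited table. Their p-values thus ran only from 0.0139 to 0.0434. Cenpe, a kinesin that carries chromosomes to the spindle equator, had 1 peak in its 3' UTR on chromosome 3 from 135273296 to 135273523 (plus strand), with 0.52 (p = 0.0355) in the authors' deposited table.

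Many mitotic regulators had no row. Cdk1 and its cyclins (Ccna2, Ccnb1 and Ccnb2), the kinases Plk1, Ttk and Wee1, and the phosphatases Cdc25b and Cdc25c had no peak in any list. The same held for the spindle checkpoint genes Bub1, Bub1b and Mad2l1, for Cdc20, which activates the anaphase-promoting complex, for the kinesins Kif11 and Kif23, and for Top2a, the topoisomerase that doxorubicin poisons. In all, 33 of the 49 genes (67.3%) had no row, against 74.7% of protein-coding genes, so the lack of a row was no more common among them. Of the 33, 11 were in G1/S, 6 in replication and 16 in G2 and mitosis.

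**Figure D3:**
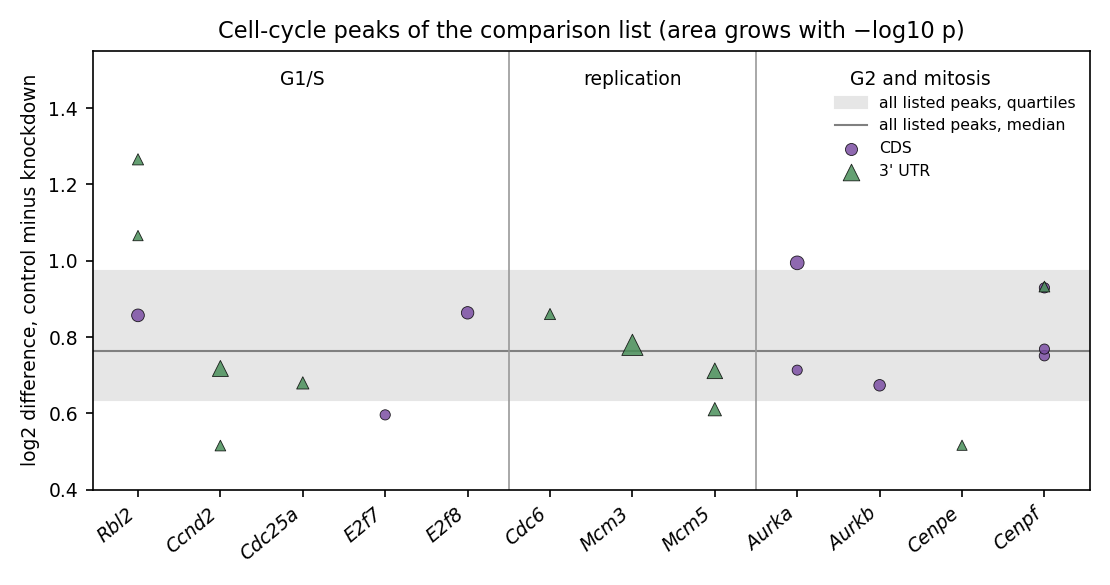
Log2 difference between control and Mettl3 knockdown (vertical axis) of the 20 peaks higher in the control in 12 cell-cycle genes (horizontal axis, grouped by phase), as the authors gave it. Circles are coding-sequence peaks and triangles 3' UTR peaks, the symbol area grows with −log10 p, and the grey band and line are the quartiles and median of all 1851 listed peaks. Rbl2 stood highest, Mcm3 had the smallest p, and 2 Cenpf peaks overlap at 0.93.

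In size, support and place the member peaks of the comparison list were close to the list as a whole. In the authors' deposited table the 20 peaks had a median log2 difference of 0.76 and a range of 0.52 to 1.27, and the median of all listed peaks was also 0.76. A p of at most 0.001 was given to 7 of the 20 member peaks in the authors' deposited table, or 35%, and to 34.7% of all peaks. Of the 20, 11 lay in 3' UTRs (55%, exact 95% interval 31.5 to 76.9) and 9 in coding sequence, against 59.1% and 39.8% in the whole list. The 20 peaks came from 12 genes and some adjoin, so they are not independent and this interval may be too narrow. By phase the 3' UTR held 5 of 8 peaks in G1/S, 4 of 4 in replication and 2 of 8 in G2 and mitosis. Of the 8 peaks in G2 and mitosis, 4 belong to Cenpf, so these are not independent. Median length was 122 bases for member peaks and 112 for all. In genomic distance, 11 of the 20 centres lay within 2000 bases of the RefSeq 3' end of their gene, against 60.5% of all peaks in protein-coding genes.

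None of the 20 member peaks overlapped a peak over input, against 23% of all peaks in the comparison list. Only the Aurkb peak lay in a gene with a peak over input, so this largely restates the gene counts given above. Of the 5 members with a peak over input, 1 (Aurkb) was also in the comparison list, against 11.2% of all genes with a peak over input, a count too small to read a difference from. Over input, member peaks of the control list had a median log2 fold of 3.79, against 3.69 for all peaks, and those of the knockdown list 3.55, against 3.83. Many of these member peaks are pieces of the same stretch, E2f3 holding the most, so they are not independent. Of the 19 control peaks of members, 14 had reached the cap on −log10 p (73.7%, where 55.9% of all had), and of the 10 knockdown peaks 7 did (70%, where 57.4% of all did). Coding sequence held 8 of the 19 control peaks of members and 5 of the 10 knockdown peaks, against 57.0% and 60.5% of all peaks in these lists. In 3' UTRs lay 6 and 2 of them, against 30.9% and 27.3%, and with so few peaks neither share stood apart from the whole list.

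Stretches gave a way to compare both libraries over overlapping ground, though each mean covers the bases of its own list. Members held 6 control stretches, and 5 of these had a knockdown stretch over them, against 73.2% of the 8064 control stretches of all genes. The length-weighted mean log2 fold over input, knockdown minus control, was -0.71 for E2f1, -0.66 for the 3' UTR stretch of E2f3, -0.08 for Cdkn2c, -0.06 for Aurkb and 0.24 for the stop-codon stretch of E2f3. Among all 5904 stretches in both lists the median was 0.07, with quartiles of -0.18 and 0.34. A difference as low as that of E2f1 was seen in 4.07% of them, and one as low as that of the E2f3 3' UTR stretch in 4.74%. The other 3 lay within the quartiles. For Cdkn2c the control mean covers 336 bases and the knockdown mean 106, so its difference is over unlike bases. Its knockdown peak at 3.17 lay over control peaks at 3.21 and 3.80, both higher. The means of all stretches cover only bases listed above a log2 fold of 3 and have no replicate, so they were not tested.

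**Figure D4:**
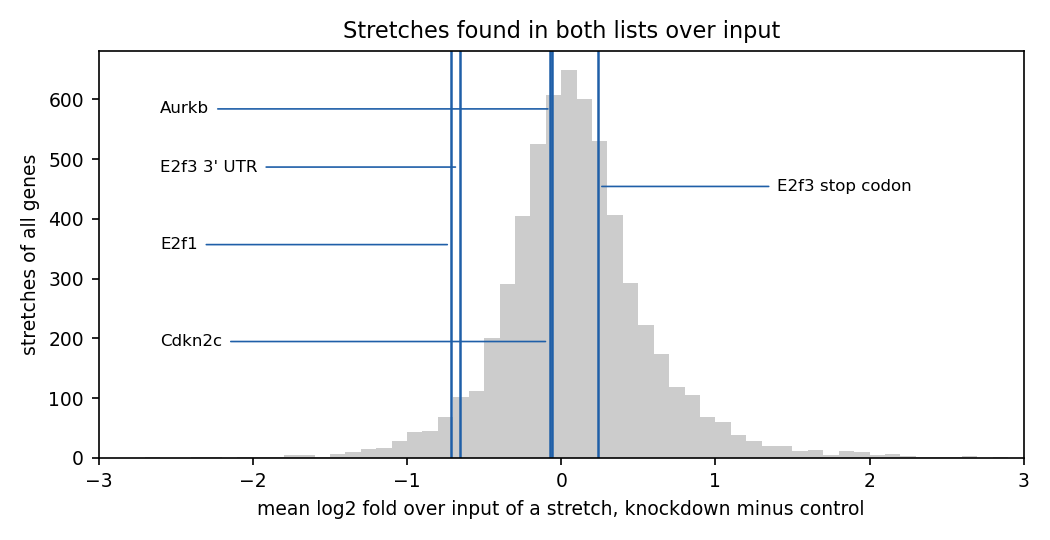
Number of stretches of all genes (vertical axis) by the difference in length-weighted mean log2 fold over input, knockdown minus control (horizontal axis), for stretches found in both lists over input. Blue lines mark the 5 stretches of cell-cycle genes. E2f1 and the 3' UTR stretch of E2f3 stood at -0.71 and -0.66, on the low side of the distribution, and Aurkb, Cdkn2c and the stop-codon stretch of E2f3 lay near its centre. Each mean covers the bases of its own list, and the lengths differ most for Cdkn2c.

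The other genes of the pathway were taken as a list of 122 further genes, most of them cell-cycle genes. Cyclins of transcription and splicing, among them Ccnt2 and Ccnl1, were included. The control list held 36 of them (29.5%), the knockdown list 30 (24.6%) and the comparison list 21 (17.2%). The share with a control peak was thus above the 20.1% of protein-coding genes, where that of the 49 genes was below it. Their 24 peaks higher in the control had a median log2 difference of 0.72 in the authors' deposited table. Of the 21 genes, 11 had no peak over input, against 11 of 12 among the members and 49.9% of all genes in the comparison list.

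The largest control folds over input in this wider list lay in Incenp, the scaffold of the passenger complex that holds Aurkb, at a log2 fold of 5.13, and in the origin gene Orc3 at 5.08. Chaf1a, a histone chaperone subunit, and the kinesin gene Kif18a stood at 4.98 each. Cdc26, of the anaphase-promoting complex, and the Cdk4 and Cdk6 inhibitor Cdkn2b followed at 4.79 and 4.77. The peaks of Orc3 and Kif18a were annotated to introns and that of Cdc26 to a noncoding exon. The knockdown list held Incenp at 5.63, Cdc26 at 5.61, Chaf1a at 5.39, Cdkn2b at 5.06, Orc3 at 5.005 and no peak of Kif18a. Of those with a peak in both lists, only Orc3 was lower in the knockdown list. The highest knockdown fold of the wider list was that of Ccnt2, a cyclin of transcription elongation, at 6.30, where its highest control peak stood at 4.54.

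Among the differences of the wider list, Nuf2, an outer kinetochore subunit, led with 4.71 (p = 0.0131) in the authors' deposited table. Gins3, of the replicative helicase, had 1.35 (p = 0.0392) and Incenp 1.13 (p = 0.0138) in the authors' deposited table, the latter over 6 bases. Lin9, of the complex that joins pocket proteins to E2F, had 0.99 (p = 0.00393) in the authors' deposited table. Ccnl1, a cyclin linked to splicing, and the kinesin gene Kif4 each had 0.92 in the authors' deposited table. The Nuf2 value stood far above the others.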

How the data were processed

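Peak lists of 1 control and 1 Mettl3-knockdown m6A-eCLIP library were used, grouped by their titles. UMI-tools 0.5.1, cutadapt 2.7 and the mm10 build are named in the submitters' processing notes; the sources used here do not give the aligner, peak caller or test. In the 2 lists over input the authors deposited, for each peak, a log2 fold and a −log10 p-value capped at 400. In the comparison list the authors deposited a log2 difference, control over knockdown, and a p-value per peak, with none below 0.5 and no p above 0.05. That list's name gives a log2 limit of 1, which its values do not keep to, so the quantity that limit was set on is not known; the column is used as its header names it. Whether those p-values were adjusted is not given, and peaks higher after knockdown are not listed. These values were used only to describe peaks.

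Symbols were matched exactly after splitting the gene cell. Printed positions count from 1, with deposited starts taken as 0-based. Peaks whose ends met were joined into stretches, and overlap meant at least 1 shared base on the same strand. Joining and overlap were tested on simulated data. Gene ends and protein-coding genes came from RefSeq (GRCm38.p6), whose table held 5873 of the 6078 symbols. All peaks of the 49 genes lay within their RefSeq spans. Exact Clopper-Pearson 95% intervals (scipy 1.17.1) cover counting error only. Python 3.11.15 with numpy 2.4.6 and pandas 2.3.3 handled the tables, and matplotlib 3.10.9 drew the plots. The 49 genes and all other lists were chosen with earlier results of these data known. Every member with a row was named, with up to 6 genes of the wider list by difference and 6 by control fold. Alternatives covered thresholds, joining, weighting by length and gene cells naming 1 gene.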

Additional observations from a re-analysis of the deposited data

How the results depend on the processing

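With 1 library per condition no library could be left out. Of 21 recomputed values, 13 stayed within 1.5 times the count, the interval of the share or 0.1 of the median, and 8 moved. Requiring a log2 fold over input of at least 4 left 3 members with a control peak and 2 with a knockdown peak. A log2 difference of at least 1 left 1 member with a peak higher in the control, Rbl2, and the same 1 among those without a peak over input, with 100% of its peaks in the 3' UTR and a median of 1.17. A p of at most 0.001 left 6 members with a peak higher in the control and 6 without a peak over input. Fewer peaks qualify under each of these by construction. Counting only gene cells that name 1 gene changed no count. The cap on −log10 p at 400, the lower limits of the lists and the unknown depth limit all comparisons between the libraries.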

Other observations

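The stretches of E2f1 and of the E2f3 3' UTR differed by -0.71 and -0.66 in mean log2 fold over input, knockdown minus control. Neither gene had a row in the comparison list, whose smallest log2 difference was 0.50. The measures are unlike, so they cannot be set against each other directly. Stretch means use folds over each library's own input across joined peaks. The comparison list gives the authors' value per peak, with no p above 0.05. Across all genes, 466 stretches were lower by at least 0.5, or 7.89% of those in both lists, and 22 of them, or 4.72%, were overlapped by a row of the comparison list. Of all stretches in both lists, 138, or 2.34%, were overlapped by such a row.

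The Nuf2 peak higher in the control, on chromosome 1 from 169510147 to 169510204, held rank 3 of all 1851 log2 differences in the authors' deposited table with a p of 0.0131. Its peaks over input lay elsewhere in the gene, the control peak at a log2 fold of 3.86 and 12002 bases away, the knockdown peak at 4.24 and 11867 bases away. All these peaks were annotated to the 3' UTR.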
